A study of Homo sapiens with 7 samples.

Results

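The unsorted wild-type culture of UM-UC-3, an established human urothelial (bladder) carcinoma line, was set beside all 6 clones sorted from that line. The clones had been picked by the ALDEFLUOR assay, in which aldehyde dehydrogenase (ALDH) activity makes living cells fluoresce, as 3 ALDH-high clones (H-1, H-6 and H-10, here ALDH-high clones 1, 6 and 10) and 3 ALDH-low clones (L-1, L-3 and L-8, here ALDH-low clones 1, 3 and 8). The submitters treat the ALDH-high clones as cancer stem-like cells, the ALDH-low clones as their non-stem counterpart and the wild type as a control. All 7 cultures share 1 line and no other treatment is labelled. A DMEM medium with serum is stated for the ALDH-high clones. Each culture gave 1 library, so every clone is 1 clonal line and the wild type, a mixed population, has no replicate.

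The comparison covered every gene with at least 1 CPM (read counts scaled to a common library size) in 3 or more of the 7 libraries, which was 12835 of the 13872 genes listed. For each gene the wild-type value was placed against the lowest and the highest of the 6 clones on the scale log2(CPM + 1). The distance is how far it lay outside that range, positive above it and negative below it. With 1 wild-type library these distances are descriptions and no test was made of them. The unsorted state and the single library cannot be told apart in this design.

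As background, ALDH enzymes oxidise aldehydes, and high ALDH activity is widely used to enrich tumour cells with stem-like behaviour. A clone starts from 1 cell and may or may not keep the state of its founder, whereas an uncloned culture averages over many cells. Gene programmes known to shift between cultures of 1 line include the interferon response, in which cytosolic sensors such as RIG-I lead to transcription of antiviral genes, and the DNA replication programme, in which E2F factors drive replication genes in late G1.

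Wild type lay above all 6 clones in 2933 genes (22.9% of those compared), below all 6 in 3232 (25.2%) and within their range in 6670. It lay at least 1 log2 unit above the highest clone in 153 genes (1.19%) and at least 1 log2 unit below the lowest clone in 84 genes (0.654%). At 2 log2 units the counts were 11 and 2. Each clone was measured against the other 6 libraries in the same way, and it was the highest by at least 1 log2 unit in 8 to 31 genes and the lowest in 0 to 53. Spearman correlations between pairs of clones were 0.925 to 0.981. A clone that resembles another can less easily stand alone, so these counts are no even yardstick for wild type. The 153 higher genes had a median of 22.4 CPM in wild type and 4.5 CPM as the mean of the clones. The 84 lower genes had 14.99 and 53.9 CPM. In all 153 and all 84 the exact Poisson 95% interval of the wild-type reads stayed clear of the nearest clone, an interval that covers counting error only. At the threshold of 1, RPSAP58 lay just inside at a distance of 1.002 and THAP2 just outside at 0.998, and on the lower side NOMO2 was at -1 and RPUSD1 at -0.995.

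The 7 libraries held 24177114 to 25664901 reads in listed genes, as recovered from the CPM steps, and 3 reads in the wild-type library correspond to 0.120 CPM. ALDH-high clone 1 was the library most like wild type, with a Spearman correlation of 0.956 across the 12835 genes against 0.903 to 0.919 for the other 5 clones. Genes are not independent replicates, and these values only describe the libraries. Without ALDH-high clone 1, wild type lay at least 1 log2 unit below the remaining 5 clones in 490 genes and above them in 266. In 234 of the 490 genes (47.8%), ALDH-high clone 1 was itself at least 1 log2 unit below those 5. It was at least 1 log2 unit above them in 4 of the 266 higher genes (1.5%). Without that limit on its own distance, it lay below those 5 in 441 of the 490 and above them in 168 of the 266. Wild type lay below those 5 at any distance in 3987 genes, and ALDH-high clone 1 did so too in 49.7% of these. Above them the values were 3474 genes and 52.8%, so at any distance the 2 sides were alike. CHMP4B, a subunit of the ESCRT-III membrane-scission machinery, stood at 31.49 CPM in wild type and 29.52 CPM in ALDH-high clone 1, against 226.80 to 349.46 CPM in the other 5. ZNF598, a ubiquitin ligase for collided ribosomes, stood at 5.68 and 6.52 CPM against 35.39 to 49.48 CPM. CBFB, the partner subunit of RUNX factors, stood at 14.55 and 22.65 CPM against 104.28 to 141.60 CPM. Fewer genes were high in both by at least 1 log2 unit: the cyclin gene CCND2 had 86.05 and 98.27 CPM against 23.16 to 39.20 CPM. These examples were chosen after their values were seen.

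The genes that both libraries held low were rich in G and C at the transcript start. Over all genes the first 200 bases of the longest annotated transcript had a median G+C share of 62.5%, and over the 234 genes it was 75%. In the highest of 10 bins of this share (76.5% or more, 1224 genes), the median level relative to the mean of the clones was -0.36 log2 units in wild type and -0.36 in ALDH-high clone 1, against 0.01 to 0.16 in the other 5. The difference between wild type and ALDH-high clone 1 in that bin had a median of 0.06. A further 256 genes were at least 1 log2 unit below the other 5 clones in wild type but not in ALDH-high clone 1. Their median share was 66.5%, and 23.05% of those with a known share lay in the highest bin, against 9.86% of all genes. The G+C pattern was therefore weaker in these genes but not absent. The distances used here require wild type to lie outside ALDH-high clone 1 as well, and the 153 and 84 genes had median shares of 61.3% and 63%. In that highest bin lay 4 of the 153 (2.74% of those with a known share) and 12 of the 84 (14.8%), against 9.86% of all genes. Leaving the bin out, a step chosen after seeing the data, left 149 and 72 genes. That is a subtraction and no test of base composition. The part of base composition in any single gene was not tested.

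**Figure D1:**
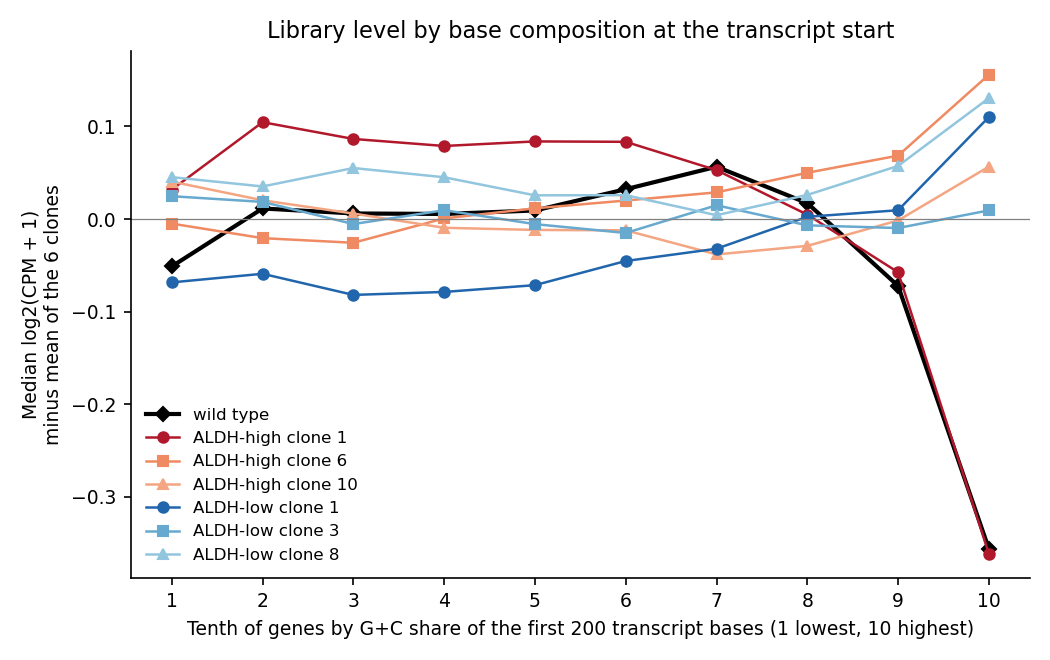
Median log2(CPM + 1) minus the mean of the 6 clones (y axis) in 10 bins of genes ordered by the G+C share of their first 200 transcript bases (x axis), with 1 line per library. Wild type (black) and ALDH-high clone 1 (dark red) lie together at -0.36 in the highest bin, where the other 5 clones lie between 0.01 and 0.16.

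Among genes that passed the filter on low values, MMP1, the interstitial collagenase, lay farthest above the clones. MMP1 (ENSG00000196611, chromosome 11) stood at 25.14 CPM in wild type (95% counting interval 23.2 to 27.2), with 1.39, 1.03 and 0.76 CPM for the ALDH-high (1, 6, 10) and 0.12, 2.12 and 0.20 CPM for the ALDH-low clones (1, 3, 8). The clones averaged 0.937 ± 0.756 CPM (SD, n = 6), and wild type was 11.9-fold above the highest of them, a distance of 3.07. ALDH-high and ALDH-low clones overlapped in MMP1, and wild type stood alone. GATSL3 (ENSG00000239282, chromosome 22), which encodes the arginine sensor of the mTORC1 pathway also called CASTOR1, stood at 24.30 CPM against 0.51 to 2.56 CPM, 9.49-fold above the highest clone.

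Other genes among the 15 highest distances came from several roles. KRT15, a basal-type keratin, stood at 54.03 CPM in wild type against 1.41 to 11.72 CPM. ARG2, the mitochondrial arginase, stood at 62.79 CPM against 3.20 to 13.84 CPM, and TSC22D1, a leucine-zipper regulator, at 173.73 CPM against 9.56 to 43.17 CPM. TM4SF1-AS1, a transcript antisense to TM4SF1, stood at 24.34 CPM against 1.02 to 3.41 CPM, and reads of sense and antisense partners cannot be told apart because no source used here states whether the counting kept strand. TIE1, a receptor tyrosine kinase best known from endothelium, stood at 23.54 CPM against 0.56 to 5.05 CPM. The highest clone differed between these genes: ALDH-low clone 1 for KRT15 and ARG2, ALDH-low clone 3 for TSC22D1 and ALDH-high clone 6 for TIE1.

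Among the 153 higher genes the most abundant were also far from every clone. PHLDA1, an ERK-responsive gene, stood at 663.96 CPM against 126.69 to 246.92 CPM, and PLAU, the urokinase plasminogen activator, at 752.36 CPM against 170.13 to 346.44 CPM. STK17A, a death-associated protein kinase, stood at 513.56 CPM against 81.94 to 187.60 CPM, and DYNC1H1, the dynein heavy chain, at 817.42 CPM against 161.88 to 397.04 CPM. KRT8, a simple-epithelium keratin, stood at 391.35 CPM against 56.16 to 168.33 CPM, and NNMT, nicotinamide N-methyltransferase, at 232.72 CPM against 36.85 to 107.00 CPM. The mean of the ALDH-high clones exceeded that of the ALDH-low clones in 110 of the 153 genes, a share that was 50.6% over all genes compared. Lower in abundance were CPT1C, at 13.23 CPM against 0.28 to 2.96 CPM, ACAD11, at 46.36 CPM against 7.40 to 15.74 CPM, and IDH2, at 22.38 CPM against 4.04 to 8.72 CPM, picked after their values were seen.

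**Figure D2:**
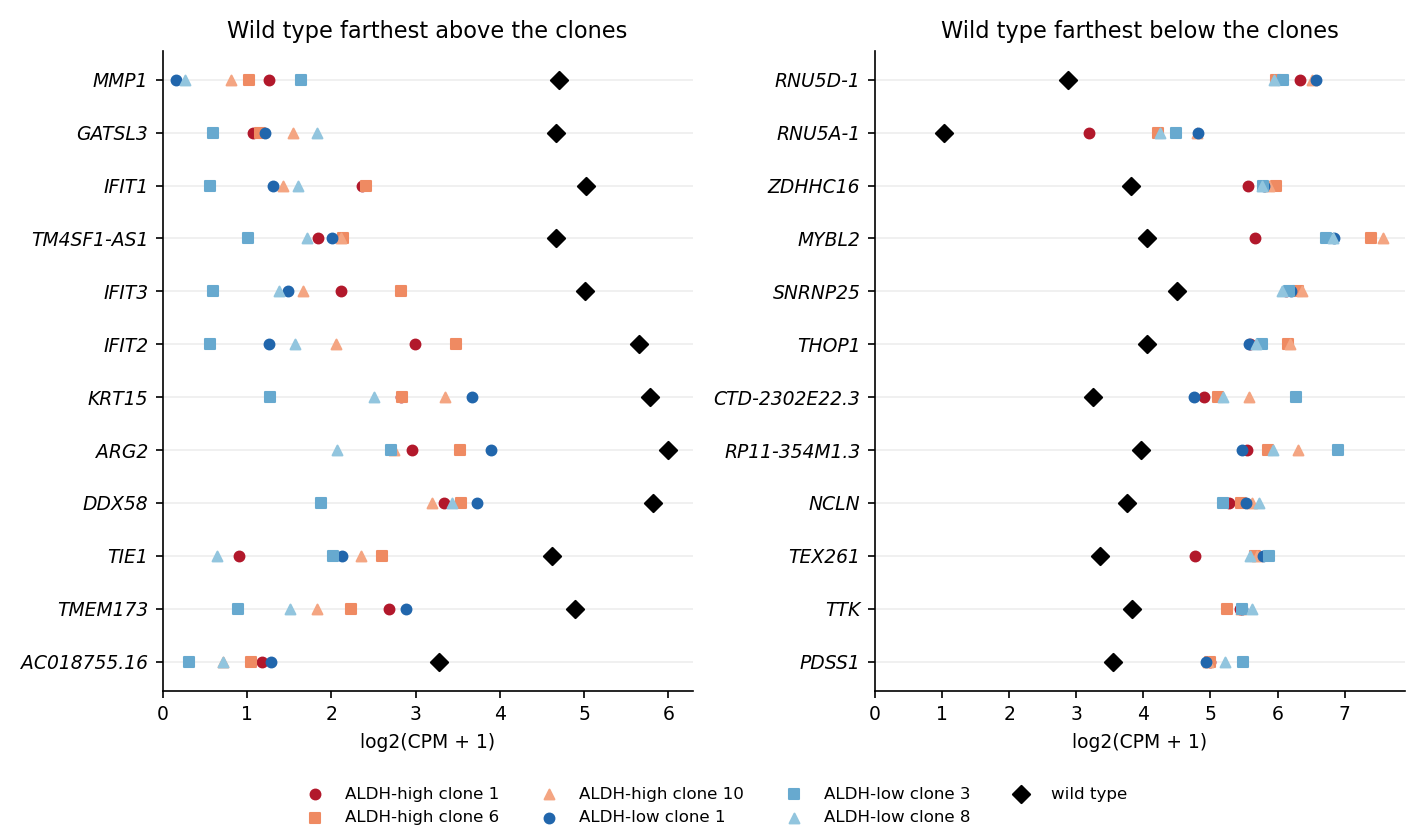
Level in log2(CPM + 1) (x axis) of the 12 genes with wild type farthest above the clones (left) and the 12 farthest below (right), with 1 marker per library. Black diamonds (wild type) stand apart from all 6 clones for every gene, by 3.07 for MMP1 at the top left and by 3.08 for RNU5D-1 at the top right, while red (ALDH-high) and blue (ALDH-low) markers intermingle for most genes.

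Interferon-stimulated genes had the highest share above the clones among the lists with at least 20 measured members. Of 28 measured members of a list of 40, 20 lay above all 6 clones (22.9% of all genes did) and 0 lay below (25.2% of all genes did). At least 1 log2 unit above were 9 members (1.19% of all genes were). The median of wild type minus the clone mean was 1.59 log2 units, against -0.03 over all genes. By library, the list's median relative to the clone mean was 0.24, 0.55 and -0.02 in ALDH-high clones 1, 6 and 10 and -0.19, -0.44 and -0.22 in ALDH-low clones 1, 3 and 8. Summed over the list, wild type had 1083 CPM and the clones 349.6 to 593 CPM. The median G+C share at the transcript start was 56.3% for this list, and in the bins around that value wild type had a median of 0.01. Of the 28 members, 0 lay in the highest bin (9.86% of all genes did). The part of base composition in this list was not tested. The list was known to stand out in these data when it was chosen, so its count is a description and not independent support.

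The IFIT genes, which encode RNA-binding antiviral proteins, led the list. IFIT1 (ENSG00000185745, chromosome 10) stood at 31.45 CPM in wild type, with 4.13, 4.31 and 1.68 CPM for the ALDH-high (1, 6, 10) and 1.48, 0.47 and 2.04 CPM for the ALDH-low clones (1, 3, 8). IFIT3 stood at 31.37 CPM against 0.51 to 6.07 CPM and IFIT2 at 49.08 CPM against 0.47 to 10.18 CPM, with distances of 2.19 and 2.16. In all 3, wild type was higher than every clone, ALDH-low clone 3 was lowest and ALDH-high clone 6 was the nearest to wild type. Sensors and signalling genes followed: DDX58, which encodes the RNA sensor RIG-I, stood at 55.27 CPM against 2.67 to 12.28 CPM, and TMEM173, which encodes the DNA-sensing adaptor STING, at 28.66 CPM against 0.86 to 6.4 CPM. TMEM173 is not on the list. STAT2, a subunit of the factor that binds interferon-response elements, stood at 23.10 CPM against 6.08 to 10.05 CPM.

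Effectors of the response were also above the clones. ISG15, a ubiquitin-like modifier, stood at 124.61 CPM against 21.21 to 40.51 CPM, and IFITM3, which blocks viral entry, at 311.46 CPM against 105.08 to 194.13 CPM. OAS1, which makes the 2-5A messenger, stood at 10.07 CPM against 0.28 to 3.04 CPM. Of the 28, 8 lay within the clone range. They were IRF1 (10.27 CPM against 7.07 to 18.88 CPM), IRF7 (7.43 against 0.75 to 12.85 CPM), OAS3 (19.94 against 11.32 to 20.98 CPM), USP18, SAMD9, HERC6, IFI35 and LGALS3BP. OASL, which failed the filter on low values, stood at 11.87 CPM against 0.24 to 2.42 CPM.

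The promoters of 3 of these genes are shown because they hold the letters of the interferon-stimulated response element, a short site in promoters through which interferon signalling acts. They are RefSeq sequences of build GRCh38.p14, 130 to 21 bases before the annotated start, 5′ to 3′ on the gene's own strand, with every GAAA followed by NN (any bases) and another GAAA, on either strand, in capitals. Overlapping matches are joined. They lie at chr10:89392493-89392602 (plus strand), chr10:89327867-89327976 (plus) and chr1:1013367-1013476 (plus).
IFIT1: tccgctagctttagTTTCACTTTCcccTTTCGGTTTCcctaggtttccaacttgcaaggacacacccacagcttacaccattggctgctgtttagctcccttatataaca
IFIT3: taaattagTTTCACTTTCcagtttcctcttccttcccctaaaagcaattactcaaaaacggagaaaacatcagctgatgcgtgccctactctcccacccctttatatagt
ISG15: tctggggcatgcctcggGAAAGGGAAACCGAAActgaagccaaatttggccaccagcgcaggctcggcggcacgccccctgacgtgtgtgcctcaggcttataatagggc
A match within 250 bases before the start was found in 16 of the 23 listed interferon-stimulated genes with a promoter in the table (69.6%), and in 3.11% of the 9288 compared genes with one. Among members above all clones it was present in 13 of 17 and among members within the clone range in 3 of 6. Among the 153 higher genes it was present in 8 of 110 (7.27%), and among the 84 lower genes in 1 of 56. Interferon signalling acts through this site, so the share in the interferon list follows from its members and says nothing about wild type. A match describes the letters and does not show that a factor was bound.

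Genes of antigen presentation by HLA class I, which are also interferon-inducible, were partly above the clones. Of 27 measured, 12 lay above all 6 clones (44.4%, against 22.9% of all genes) and 4 below (14.8%, against 25.2%), with a median of 0.32. HLA-C stood at 353.66 CPM against 120.32 to 177.99 CPM and HLA-B at 150.59 CPM against 35.13 to 97.60 CPM. The immunoproteasome subunit PSMB9 stood at 34.93 CPM against 11.08 to 23.76 CPM, and the peptide transporter subunit TAP1 at 16.15 CPM against 7.08 to 11.40 CPM. B2M, the light chain that all class I molecules share, was within the range at 511.61 CPM against 297.96 to 556.4 CPM, and the chaperone gene CANX was below it at 958.23 CPM against 1109.80 to 1466.16 CPM. HLA genes are near-identical in parts, and how reads were divided among them is described in no source used here.

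Surface proteolysis and immediate early genes also had more members above than below. Of 14 measured matrix proteases and inhibitors, 6 lay above all clones (42.9%, against 22.9% of all genes) and 0 below (25.2% of all genes did). Besides MMP1 and PLAU, these were the inhibitors TIMP1 and TIMP2, the urokinase receptor PLAUR (244.99 CPM against 107.93 to 220.80 CPM) and the membrane-anchored protease MMP14 (284.80 CPM against 87.50 to 261.40 CPM). MMP9 and MMP2 were among those that lay within the range. Of 32 immediate early and ERK feedback genes, 11 lay above (34.4%, against 22.9% of all genes) and 4 below (12.5%, against 25.2%). IER2 stood at 11.35 CPM against 2.84 to 5.92 CPM and the phosphatase gene DUSP6 at 107.71 CPM against 17.56 to 82.65 CPM. MYC was below the range at 92.28 CPM against 105.11 to 168.36 CPM, and KLF10 at 10.75 CPM against 15.04 to 33.12 CPM.

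DNA replication genes and histone genes had the highest shares below the clones among the lists of that size. Of 38 G1/S and DNA replication genes, 33 lay below all 6 clones (25.2% of all genes did) and 0 above (22.9% of all genes did). The median was -0.81 log2 units, and 4 were at least 1 log2 unit below (0.654% of all genes were). The list's median was 0.10, 0.21 and 0.32 in ALDH-high clones 1, 6 and 10 and -0.24, -0.23 and -0.10 in ALDH-low clones 1, 3 and 8. The count below was 33 without ALDH-high clone 1 as well. The median G+C share at the transcript start was 63.3%, in the bin where wild type had a median of 0.03 over all genes. In the highest bin, where that median was -0.36, lay 5 of the 38 members (13.2%, against 9.86% of all genes). The part of base composition in this list was not tested. This list, too, was chosen with earlier results known.

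The lower replication genes came from several steps of the process. MCM10 (ENSG00000065328, chromosome 10), which loads polymerase alpha at origins, stood at 18.22 CPM in wild type, with 73.79, 72.44 and 97.72 CPM for the ALDH-high (1, 6, 10) and 46.12, 62.73 and 63.96 CPM for the ALDH-low clones (1, 3, 8), a distance of -1.29. POLA1, the catalytic subunit of polymerase alpha, stood at 14.75 CPM against 33.72 to 50.84 CPM. MCM5, a subunit of the replicative helicase, stood at 39.89 CPM against 84.72 to 112.12 CPM and MCM2 at 82.05 CPM against 139.56 to 219.32 CPM. In each of these, wild type was lowest and ALDH-high clone 10 was highest. CCNE2, the S-phase cyclin E2, stood at 14.39 CPM against 31.90 to 82.92 CPM, and PCNA, the sliding clamp, at 196.51 CPM against 283.80 to 467.60 CPM. The 5 members within the range were RFC1, PRIM1, RFC4, SLBP and CDT1.

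Of the 84 lower genes, 4 with roles in the cell cycle that are not on that list are described here, picked after their values were seen. TK1, thymidine kinase, stood at 34.57 CPM against 88.98 to 117.40 CPM. MYBL2, the B-Myb factor of late cell-cycle genes, stood at 15.59 CPM in wild type and 49.91 CPM in ALDH-high clone 1, and at 105.04 to 188.84 CPM in the other 5 clones. UHRF1, which reads hemimethylated DNA behind the fork, stood at 24.62 CPM against 51.84 to 57.74 CPM, the narrowest clone range of these. PKMYT1, a kinase that holds CDK1 inactive, stood at 29.65 CPM against 72.91 to 108.08 CPM.

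The promoters of POLA1 and GINS2, a subunit of the helicase complex GINS at 16.47 CPM against 29.52 to 49.32 CPM, are shown for their E2F-type letters. They are RefSeq sequences of GRCh38.p14, 150 to 6 bases before the start, 5′ to 3′ on the gene's strand, at chrX:24693768-24693912 (plus strand) and chr16:85688960-85689104 (minus strand). Capitals mark TTTCCCGC or TTTGGCGC on either strand.
POLA1: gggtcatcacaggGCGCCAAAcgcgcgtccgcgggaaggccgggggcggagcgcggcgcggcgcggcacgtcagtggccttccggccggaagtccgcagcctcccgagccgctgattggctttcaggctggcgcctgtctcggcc
GINS2: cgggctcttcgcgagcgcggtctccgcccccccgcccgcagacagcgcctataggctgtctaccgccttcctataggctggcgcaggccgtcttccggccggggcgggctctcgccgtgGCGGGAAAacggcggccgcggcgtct
One of these letter strings was present in 13 of 33 listed replication genes with a promoter in the table (39.4%) and in 4.22% of all 9288. In the 84 lower genes it was present in 3 of 56 (5.36%), and in the 153 higher genes in 6 of 110 (5.45%). E2F factors drive replication genes, so the share in that list follows from its members and says nothing about wild type. Matching letters do not show that a factor was bound.

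Replication-dependent histone genes, whose transcripts accumulate in S phase, lay below as well. Of 58 measured, 49 lay below all 6 clones (84.5%, against 25.2% of all genes) and 1 above (1.72%, against 22.9%). The median was -0.95. Summed over the list, wild type had 35696 CPM, and the clones had 48262 CPM (ALDH-low clone 8) to 95500 CPM (ALDH-high clone 6). HIST1H3D stood at 1115.25 CPM against 2234.24 to 3460.00 CPM, and HIST1H2AE at 555.53 CPM against 1210.60 to 1964.49 CPM. The exception above the range was HIST1H4K, at 6.47 CPM against 2.64 to 3.8 CPM. Histone genes are near-identical copies, so the division of reads among them is uncertain. The sum depends less on that division but is open to single erratic entries. HIST2H3C stood at 4273.65 CPM in ALDH-high clone 10 and 306.40 CPM in ALDH-low clone 1, against 0.88 to 3.26 CPM in the other libraries.

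Mitotic genes were a further group below the clones. Of 37 G2/M and mitosis genes, 21 lay below all clones (56.8%, against 25.2% of all genes) and 2 above (5.41%, against 22.9%). The median was -0.38. The 2 above were PTTG1, at 866.94 CPM against 305.60 to 695.56 CPM, and UBE2C, at 491.66 CPM against 337.73 to 431.08 CPM. Another 14 lay within the range, CDK1, CCNB1, AURKA and PLK1 among them. TTK, the spindle-checkpoint kinase MPS1, stood at 13.23 CPM against 37.02 to 48.16 CPM, FOXM1, a transcription factor of mitotic genes, at 32.37 CPM against 54.96 to 86.07 CPM, and the kinesin gene KIF4A at 29.14 CPM against 45.80 to 69.32 CPM. Under quantile normalization the count below was 17.

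Chaperones formed a further low group. The list, named cytosolic chaperones in the plots, also holds the mitochondrial pair HSPD1 and HSPE1 and the transcription factor HSF1. Of 21 measured, 14 lay below all 6 clones (66.7%, against 25.2% of all genes) and 0 above (22.9% of all genes did). The median was -0.63. HSPA8, the constitutive HSP70, stood at 273.05 CPM in wild type, with 594.83, 754.93 and 937.08 CPM for the ALDH-high (1, 6, 10) and 601.72, 707.28 and 656.48 CPM for the ALDH-low clones (1, 3, 8). Its partner gene DNAJA1 stood at 321.73 CPM against 726.32 to 1158.05 CPM, and HSPE1, the mitochondrial co-chaperonin HSP10, at 946.12 CPM against 1309.92 to 3132.52 CPM. HSF1, the heat-shock transcription factor, stood at 102.31 CPM against 169.36 to 221.08 CPM. HSP90AA1 and HSPB1 lay within the range.

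**Figure D3:**
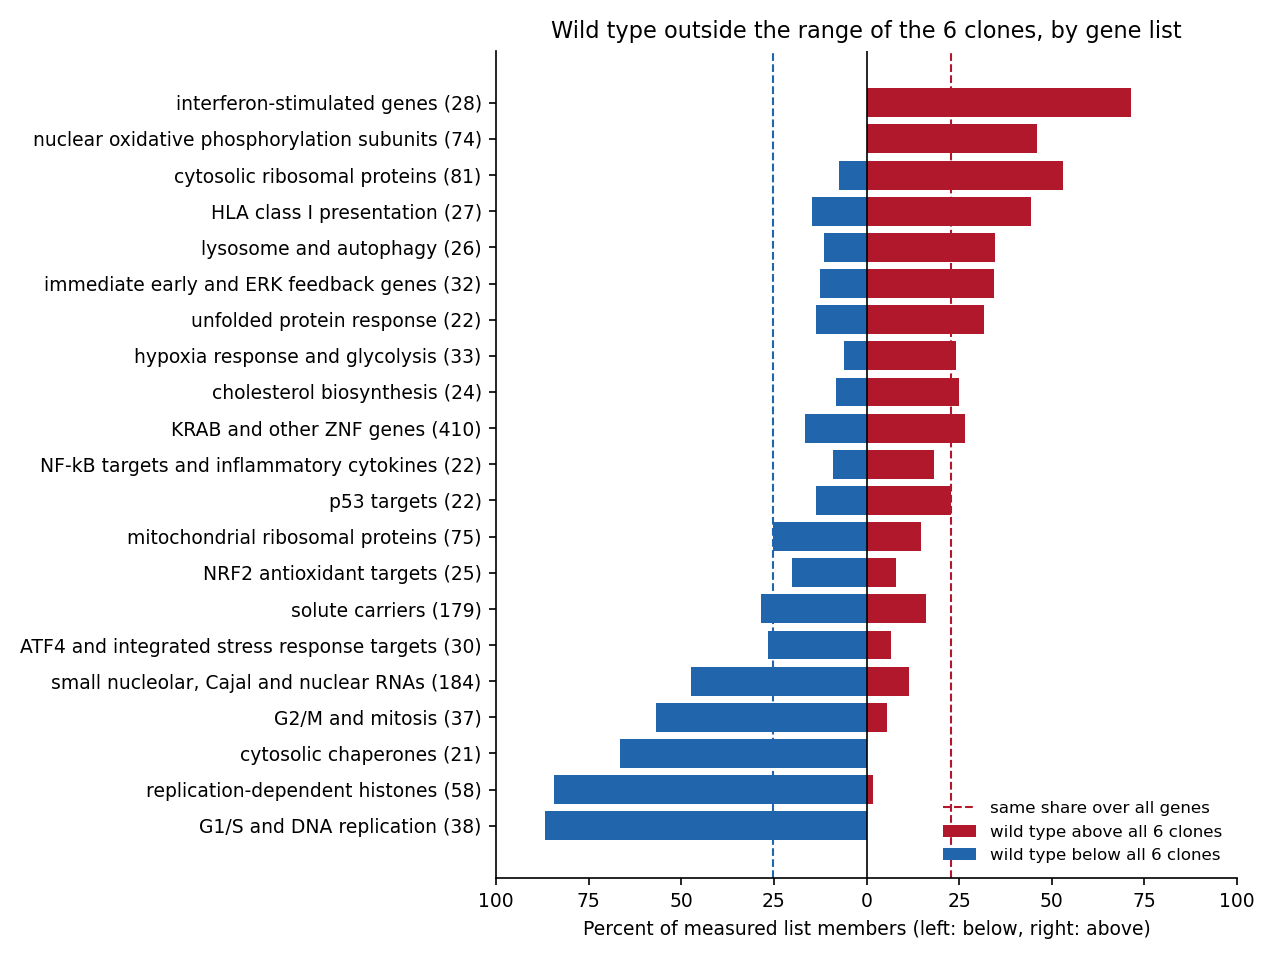
Percent of measured members lying above all 6 clones (red, right) or below all 6 (blue, left) for lists with at least 20 members, with the number measured in parentheses. Dashed lines give the shares over all genes, 22.9% and 25.2%. Interferon-stimulated genes reach farthest right (20 of 28) and replication genes farthest left (33 of 38).

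Small structural RNAs gave the greatest distances below the clones. RNU5D-1 (ENSG00000200169), a gene for U5 small nuclear RNA, the spliceosome component that holds the exon ends in place, stood at 6.31 CPM in wild type (counting interval 5.37 to 7.38). It stood with 79.59, 62.18 and 90.72 CPM for the ALDH-high (1, 6, 10) and 93.80, 66.39 and 60.88 CPM for the ALDH-low clones (1, 3, 8), so the lowest clone was 9.65-fold above wild type. RNU5A-1 stood at 1.04 CPM against 8.11 to 27.20 CPM and RNU4-2, a gene for U4, at 1.76 CPM against 5.66 to 15.92 CPM. RNU5B-1 was below the clones too, at 1.60 CPM against 3.66 to 17.32 CPM, while RNU5F-1 lay within their range at 30.85 CPM against 23.04 to 70.57 CPM. The U5 genes therefore differed among themselves. They are similar copies, so the division of reads among them is uncertain.

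Over 184 small nucleolar, Cajal body and nuclear RNA genes, 87 lay below all 6 clones (47.3%, against 25.2% of all genes). A further 21 lay above (11.4%, against 22.9%), and the median was -0.50. Their summed level nevertheless was highest in wild type, at 38145 CPM against 24111 to 34468 CPM in the clones. That sum rests on small RNA genes nested in abundant hosts: SNORD54 stood at 6888.78 CPM in wild type and its host gene RPS20 at 6888.62 CPM. SNORD101 had the same values as RPS12 in all 7 libraries, at 3818.07 CPM in wild type. Reads of host and nested gene cannot be separated in these values. The counts above and below and the median of this list therefore include values that may be those of host genes.

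Other genes far below the clones had varied roles. ZDHHC16, a protein palmitoyltransferase, stood at 13.15 CPM against 46.13 to 62.02 CPM. SNRNP25, a protein of the minor spliceosome, stood at 21.62 CPM against 65.76 to 81.00 CPM. EIF5A, a translation factor, was the most abundant of those named here, at 1296.94 CPM against 2683.49 to 3430.93 CPM, and ODC1, the first enzyme of polyamine synthesis, stood at 206.02 CPM against 463.22 to 679.80 CPM. SLC4A2, an anion exchanger, stood at 19.14 CPM in wild type, 49.63 CPM in ALDH-high clone 1 and 109.72 to 151.56 CPM in the others. The same order held for SRXN1, an NRF2 target, at 38.53, 70.77 and 218.64 to 374.05 CPM.

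Ribosomal protein and respiratory chain genes were higher in wild type, and in ALDH-high clone 1 as well. Of 81 cytosolic ribosomal protein genes, 43 lay above all 6 clones (53.1%, against 22.9% of all genes) and 6 below (7.41%, against 25.2%). The list's median was 0.37 in wild type, 0.29 in ALDH-high clone 1 and -0.10 to -0.01 in the other clones. Without ALDH-high clone 1 the count above was 57. RPL28 stood at 3478.16 CPM against 1910.39 to 2244.56 CPM and RPS3 at 2776.60 CPM against 734.04 to 1873.06 CPM. Of 74 nuclear genes for oxidative phosphorylation subunits, 34 lay above (45.9%, against 22.9% of all genes) and 0 below (25.2% of all genes did). The median was 0.30 in wild type, 0.27 in ALDH-high clone 1 and -0.24 to 0.15 in the other 5. NDUFS8, a subunit of complex I, stood at 732.82 CPM against 383.12 to 542.61 CPM. Wild type and ALDH-high clone 1 differed by a median of 0.07 in the ribosomal list and 0.09 in the respiratory list, against 1.26 in the interferon list and -0.97 in the replication list. Mitochondrial ribosomal proteins lay near 0, with 11 of 75 above (14.7%) and 19 below (25.3%, near the 25.2% of all genes).

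**Figure D4:**
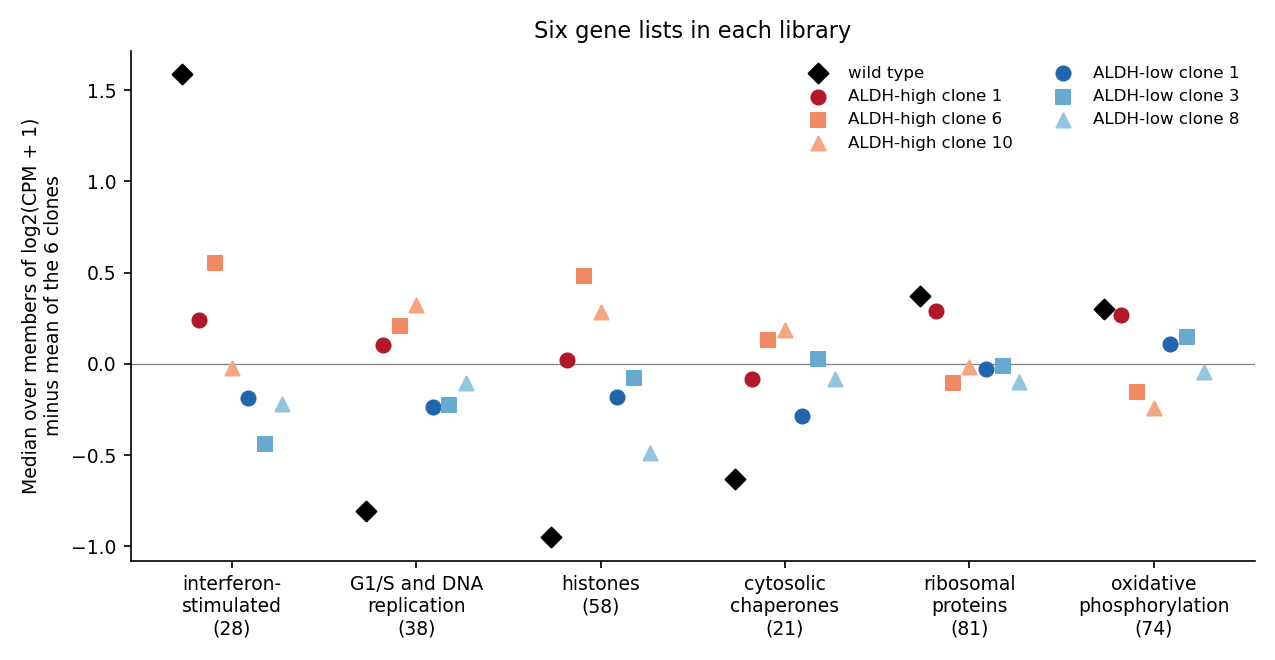
Median over the members of log2(CPM + 1) minus the mean of the 6 clones (y axis) for 6 gene lists, with 1 marker per library and the number of members in parentheses. Wild type (black) stands alone at 1.59 for interferon-stimulated genes and at -0.81 for replication genes, while for ribosomal proteins (0.37 and 0.29) and oxidative phosphorylation (0.30 and 0.27) it lies beside ALDH-high clone 1.

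Non-coding transcripts were counted by their annotated type. Of 353 genes annotated as antisense, 41.1% lay above all 6 clones and 8.5% below, and of 261 lincRNA genes 33.3% and 10.3%. Of 10741 protein-coding genes the shares were 22.1% and 25.2%. HOTAIRM1, a transcript of the HOXA region, stood at 25.38 CPM against 4.43 to 12 CPM, and IDH1-AS1 at 7.31 CPM against 1 to 2.23 CPM. MALAT1, an abundant nuclear RNA, stood at 7479.60 CPM against 2954.54 to 6126.97 CPM. By chromosome, 9 held the lowest median (-0.27, with 11.6% of 493 genes above and 32.9% below), followed by 22 (-0.23) and 16 (-0.18). Chromosome 12 had the highest, 0.11.

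Of 11 members of the ALDH family measured, 4 lay above all 6 clones (36.4%, against 22.9% of all genes), 1 below (9.09%, against 25.2%) and 6 within their range. ALDH6A1, an enzyme of valine breakdown, stood at 25.22 CPM in wild type, with 8.5, 7.10 and 5.28 CPM for the ALDH-high (1, 6, 10) and 3.08, 3.54 and 2.24 CPM for the ALDH-low clones (1, 3, 8). ALDH3B1 stood at 17.82 CPM against 1.96 to 12.08 CPM. ALDH1A1, which makes retinoic acid and is the member most often tied to the ALDEFLUOR signal, stood at 37.85 CPM, beside 33.37 CPM in ALDH-high clone 6, 42.20 CPM in ALDH-high clone 10 and 96.32 CPM in ALDH-high clone 1. ALDH-low clones had 0 to 0.08 CPM.

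Whether wild type resembles one kind of clone was read from genes that it took no part in choosing. In limma 3.58.1 on the 6 clones alone, 82 of 12705 genes were higher in ALDH-high clones (0.645%) and 88 lower (0.693%) at a Benjamini-Hochberg adjusted p under 0.05. The place of wild type was set to 0 at the ALDH-low mean and 1 at the ALDH-high mean, on the scale log2(CPM + 1). On this scale a value midway between the groups in CPM lies nearer the group with the higher level. In genes higher in ALDH-high clones the median place was 0.88, with 63 of 82 genes nearer the ALDH-high mean. In genes lower in ALDH-high clones it was 0.66, again with 63 of 88 nearer that mean. Of the 82 genes, wild type lay within the range of the ALDH-high clones in 29, within that of the ALDH-low clones in 3, between the groups in 33 and beyond either group in the rest. Of the 88 genes the counts were 25, 7 and 50. With the ALDH-high mean taken from clones 6 and 10 alone, 63 of 82 and 64 of 88 genes were nearer to it. These are counts over genes of 1 wild-type library, with no error for the place of the culture.

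Leading genes of the ALDH-high clones were present in wild type at or near the levels of those clones. GRIK2, a kainate-type glutamate receptor subunit and the gene named in the series title, stood at 15.79 CPM against 11.04 to 24.56 CPM in ALDH-high clones and 0 to 0.04 CPM in ALDH-low clones, a place of 0.96. EPHA7, an ephrin receptor, stood at 68.30 CPM against 57.17 to 106.22 CPM in ALDH-high clones (place 0.97), and EDIL3, a secreted integrin ligand, at 51.92 CPM against 25.61 to 46.97 CPM (place 1.12). Among genes lower in ALDH-high clones, wild type was often intermediate, between the groups in 50 of 88. DPP7, a lysosomal dipeptidyl peptidase, stood at 0.92 CPM, between 0.04 to 0.08 CPM in ALDH-high clones and 9.64 to 12.37 CPM in ALDH-low clones. S100A6, a calcium-binding protein, stood at 131.41 CPM, between 43.79 to 59.27 CPM and 202.48 to 334.73 CPM, a place of 0.40. The other genes among the 8 of smallest limma p in each direction had places between 0.56 and 1.11. Of those higher in ALDH-high clones, RP11-151D14.1 had a place of 0.94, PCSK1N of 1.11, LPHN3 of 0.95 and C3orf14 of 0.60. Of those lower, PTPRD had a place of 0.80, SLC35D2 of 0.78, PTPRK of 0.56, SMIM10 of 0.64 and BDKRB1 of 0.81. MARCKS, a membrane-bound substrate of protein kinase C, was below all clones at 8.87 CPM against 11 to 13.72 CPM in ALDH-high clones.

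In a smaller number of these genes wild type stood at or beyond the ALDH-low clones (3 and 3 of the 82, 7 and 2 of the 88). The replication genes MCM4 (124.09 CPM in wild type, 249.19 to 291.20 CPM in ALDH-high and 152.52 to 169.43 CPM in ALDH-low clones), UNG and PRIM1 had places of -0.49, -0.19 and -0.01. CCT2, a subunit of the cytosolic chaperonin, stood at 271.65 CPM, with 442.35 to 551.79 CPM in ALDH-high and 261.64 to 308.28 CPM in ALDH-low clones. MVP, the major vault protein, stood at 56.75 CPM, above both the ALDH-high clones (19.36 to 24.83 CPM) and the ALDH-low clones (40.56 to 49.40 CPM). At the other end, IFI6, an interferon-stimulated gene, was beyond the ALDH-high clones at 100.11 CPM against 36.96 to 65.38 CPM. These 6 genes were picked after their places were seen.

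**Figure D5:**
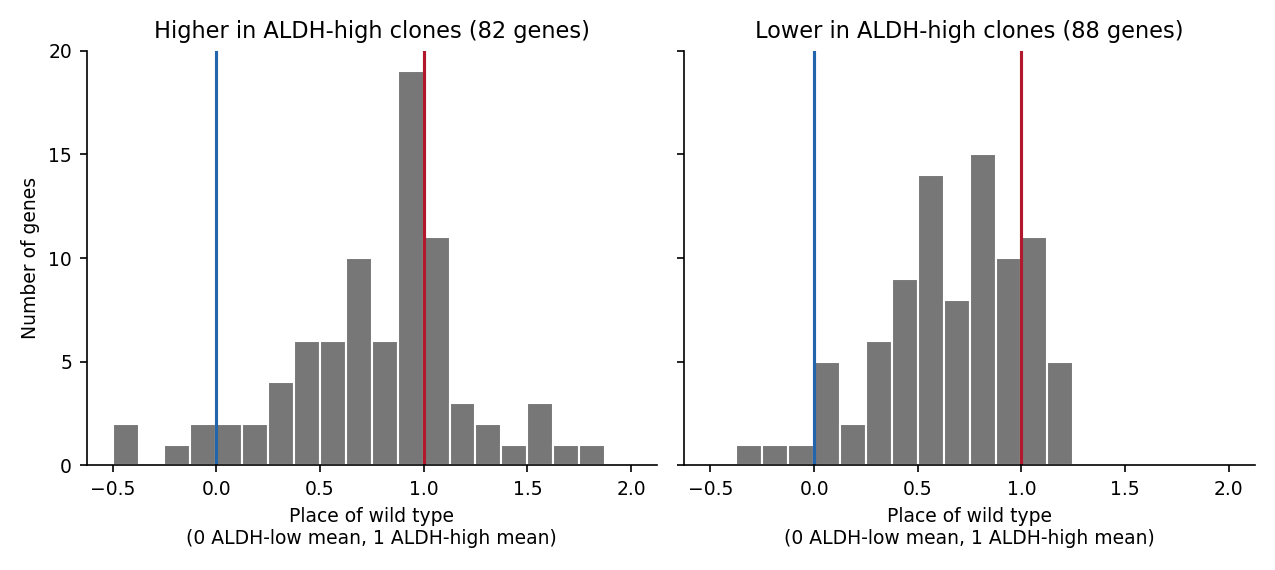
Number of genes (y axis) by the place of wild type (x axis), where 0 (blue line) is the ALDH-low mean and 1 (red line) the ALDH-high mean, for the 82 genes higher (left) and the 88 genes lower (right) in ALDH-high clones. The left distribution peaks beside 1 (median 0.88) and the right one is spread between the lines (median 0.66).

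Markers of other cell types were checked in the table. Of 21 luminal urothelial markers 10 were listed, and their sum was 832 CPM in wild type and 354 to 860 CPM in the clones. Of 20 basal markers 5 were listed, with 488 CPM against 203 to 701 CPM. The listed marker of fibroblasts was THY1 (1 of 10), that of endothelium TIE1 (1 of 10) and that of leukocytes and red cells CD68 (1 of 14), at 139.04 CPM against 64.36 to 130.80 CPM. THY1 stood at 6.91 CPM, within the clone range of 0 to 29 CPM. The part of other cells in TIE1 or CD68 was not tested.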

How the data were processed

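Total RNA of 7 cultures was profiled by sequencing, 1 library each. Whether the reads are start-site tags (CAGE) or cover whole transcripts could not be settled, so a CPM value may stand for either. The deposited table holds CPM values (read counts scaled to library size) for each gene, per the file headers, whose column names point to the CAGEr package. The aligner BWA (version 0.5.9) and 2 builds, mm9 and hg19, appear with no role per the submitters' processing notes. No label describes the step from reads to genes. Samples were grouped by their labels.

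CPM values were taken as log2(CPM + 1), keeping genes with at least 1 CPM in 3 of 7 libraries. Genes were called at 1 log2 unit outside the range of the 6 clones, with no test. ALDH genes were chosen in limma 3.58.1 (trend, two-sided, Benjamini-Hochberg threshold 0.05) on the 6 clones, in R 4.3.3. Its p-values measure only the spread between clones, since each clone is 1 library. Whole reads were recovered from CPM steps for 99.8% to 100% of values (tolerance 0.0051 CPM, by library), and edgeR 4.0.16 (quasi-likelihood) on them, added after seeing the data, called 54 genes higher and 75 lower in ALDH-high clones. Counting intervals are exact Poisson intervals at 95% and cover counting error only. Other steps used Python 3.11.15, pandas 2.3.3, numpy 2.4.6 and scipy 1.17.1, and the steps were tested on simulated data. GENCODE release 29 (GRCh38) gave chromosomes, gene types and the base composition of transcript starts for 96.8% of genes. RefSeq GRCh38.p14 gave promoters for 9288.

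The rule for naming gave the 15 genes farthest outside the clones in each direction (1 per set of identical values), GRIK2 and ALDH1A1, up to 3 members per list at least 0.5 outside, and the 8 ALDH genes of smallest p in each direction. The text describes a selection of these, and genes named beyond this rule were chosen after their values were seen. A symbol listed under 2 identifiers counts for each (TAP2 among HLA genes, RPL26 among ribosomal proteins, NDUFA7, NDUFB8 and UQCR11 among respiratory genes). Members and lists were chosen with earlier results of these data known. Alternatives changed the pseudocount, the filter, the scaling, the distance, the handling of identical values and the clones included. Some items are not reported here.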

Additional observations from a re-analysis of the deposited data

How the results depend on the processing

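The counts of genes at least 1 log2 unit outside the clones (153 above, 84 below) depended on the threshold's construction. Measured from the mean of the clones they were 779 and 864, with a pseudocount of 5 they were 62 and 37, a pseudocount of 0.1 gave 157 below, and a filter at 5 CPM gave 84 above. Leaving out 1 clone gave 160 to 266 above and 86 to 490 below, with both highest values without ALDH-high clone 1. Median-ratio scaling gave 172 and 73, and quantile normalization 171 and 88. The percent of genes placing wild type nearer the ALDH-high mean was 66.07 to 95.24 for genes higher in those clones and 62.71 to 92.86 for genes lower, with 1 clone left out and the genes chosen anew. With edgeR it was 77.8% and 70.7%, where limma gave 76.8% and 71.6%.

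Among list medians (wild type minus clone mean, log2), those near 0 turned sign. ATF4 targets were at 0.0194 under median-ratio scaling and 0.0282 under quantile normalization, Wnt feedback genes at -0.0353 and mitochondrial ribosomal proteins at 0.0616 under quantile normalization. With 1 clone left out, the medians ran from -0.277 to 0.116 for mesenchymal genes, -0.314 to 0.246 for epithelial junction genes, -0.2 to 0.205 for stem-like markers, -0.0393 to 0.13 for cholesterol biosynthesis, -0.0953 to 0.0762 for ATF4 targets, -0.0327 to 0.328 for Wnt feedback genes, -0.0361 to 0.211 for cancer-testis antigens and -0.441 to 0.541 for the 1 fibroblast marker. The cause was not tested. No paired analysis was possible because wild type is a single library, the ALDH-high and ALDH-low clones share only the number 1, and the wild-type results come from no test.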

Other observations

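Of the 1037 listed genes under the filter on low values, 332 had at least 1 CPM in wild type. BOLA2B (ENSG00000169627) stood at 13.59 CPM in wild type against 0.43 to 0.68 CPM in the clones, but a second entry of that symbol (ENSG00000261740) stood at 0.80 CPM against 1.04 to 36.12 CPM. GTF2H2B stood at 9.91 CPM against 0.32 to 0.52 CPM. Both genes have near-identical copies, so the division of reads among them is uncertain. TNFRSF6B, a decoy receptor for FAS ligand, stood at 3.20 CPM against 0 to 0.28 CPM.

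Some lists not described above had more members above than below all 6 clones, where the shares over all genes were 22.9% above and 25.2% below. Of 10 neuronal and neuroendocrine genes, 4 lay above (40.0%) and 0 below: VGF, a secretory granule protein, stood at 288.71 CPM against 25.68 to 203.30 CPM. Of 17 fatty acid genes, 7 lay above (41.2%) and 1 below: ACSS2, an acetyl-CoA synthetase, stood at 26.54 CPM against 6.20 to 13.44 CPM. Of 26 lysosome and autophagy genes, 9 lay above (34.6%) and 3 below: GABARAPL1, an ATG8 family protein, stood at 9.59 CPM against 0.76 to 2.38 CPM. Of 33 hypoxia and glycolysis genes, 8 lay above (24.2%) and 2 below (6.06%), and without ALDH-low clone 1 the count above was 18.

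In other lists the counts lay near or under the shares over all genes, and nothing is read from them. Of 25 NRF2 targets, 2 lay above all 6 clones (8%) and 5 below (20%): HMOX1, heme oxygenase, stood at 31.69 CPM against 58.04 to 263.80 CPM. Of 22 p53 targets, 5 lay above (22.7%) and 3 below (13.6%): CCNG1 stood at 71.98 CPM against 16.16 to 33.94 CPM, whereas BAX stood at 56.91 CPM in wild type and 93.10 CPM in ALDH-high clone 1 against 156.40 to 182.39 CPM in the other 5. Of 13 stem-like markers, 3 lay above and 3 below (23.1% each): SOX9 stood at 23.46 CPM against 2.19 to 12.26 CPM, and BMI1 (ENSG00000168283), a Polycomb subunit, at 23.30 CPM against 47.25 to 75.11 CPM. A second entry with the symbol BMI1 (ENSG00000269897) lay above the clones instead, at 62.59 CPM against 39.99 to 58.97 CPM. Symbols with several identifiers count once for each in these list counts.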
